A study of Salmo salar with 40 samples.

Results

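The mitochondrial protein import machinery of the liver was described here from RNA sequencing of Atlantic salmon, Salmo salar. A gene entry belonged to it if its description named a mitochondrial import subunit or a translocase of the inner or outer mitochondrial membrane, or if its symbol began with timm or tomm. This rule found 46 of the 79140 entries in the count table, and they carry the names of 23 subunits, because salmon has kept many genes in duplicate. Lufenuron is a benzoylurea that stops arthropods from making chitin and serves as a medicine against sea lice, which are crustaceans that feed on salmon skin. Livers came from 4 groups of 10 fish: exposed fish at day 14 and control fish at day 14, sampled 7 days after treatment had ended, and exposed fish at day 8 and control fish at day 8, sampled 1 day after it had ended. Exposed fish were given 5 mg of lufenuron per kg and controls a dose of 0, and each library came from a different fish. Body weights were 35 to 66 g in exposed fish at day 14, 17 to 67 g in controls at day 14, 34 to 44 g in exposed fish at day 8 and 34 to 42 g in controls at day 8. The labels give no strain, age, tank or feeding. The p-values therefore reflect the spread among the sampled fish alone, and tank and group cannot be told apart. In pieces of whole liver, fewer cells of a type and less RNA per cell cannot be told apart.

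Most mitochondrial proteins are made in the cytosol and enter the organelle through the TOM complex of the outer membrane, where TOM20, TOM22 and TOM70 act as receptors and TOM40 forms the channel. Proteins with an amino-terminal presequence continue through the TIM23 complex of the inner membrane and are pulled into the matrix by a motor that TIM44 anchors to the channel. Carrier proteins, which have no such presequence, are guided across the intermembrane space by the small TIM chaperones and inserted by the TIM22 complex. The liver holds many mitochondria for the oxidation of fatty acids, the breakdown of amino acids and the synthesis of haem, which need imported enzymes.

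Libraries held 43.4 M to 76.8 M (mega) counts, so that 1 CPM (counts scaled to a common library size, adjusted for composition) stood for at least 41.9 reads. The import genes took 0.0249% to 0.0735% of the counts of a fish. Each of the 46 members had a count in at least 1 fish, and 41 passed the filter on low counts. The 5 that did not were a TIM44-like copy (LOC106573571), a TOM40B homolog (LOC106595314), the TIM16-like copies LOC106606502 and LOC106606503, and tomm40l. In every group these 5 averaged under 0.2 CPM. Markers of hepatocytes summed to 100300 to 190600 CPM over the 40 libraries. Libraries that carried RNA of exocrine pancreas are described beside the day 8 result they touch.

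At day 8 the import genes stood mostly lower in exposed livers than in control livers. A negative log2 fold change was found for 36 of the 41 members tested, and 3 of them fell past the threshold of an adjusted p of 0.05 (edgeR quasi-likelihood test, Benjamini-Hochberg over 30397 genes). The 3 were a copy of TIM50, a copy of TIM10 and a copy of TIM44. They make up 7.32% of the members tested, against 1.63% of all genes tested that passed in either direction and 1.16% that fell. No member rose, against 0.467% of all genes. At an unadjusted p under 0.05 there were 18 of 41 members, all lower in exposed livers, against 4884 of 30397 genes, of which 2646 were lower. The median log2 fold change was -0.29 over the members and 0.01 over all genes tested.

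**Figure D1:**
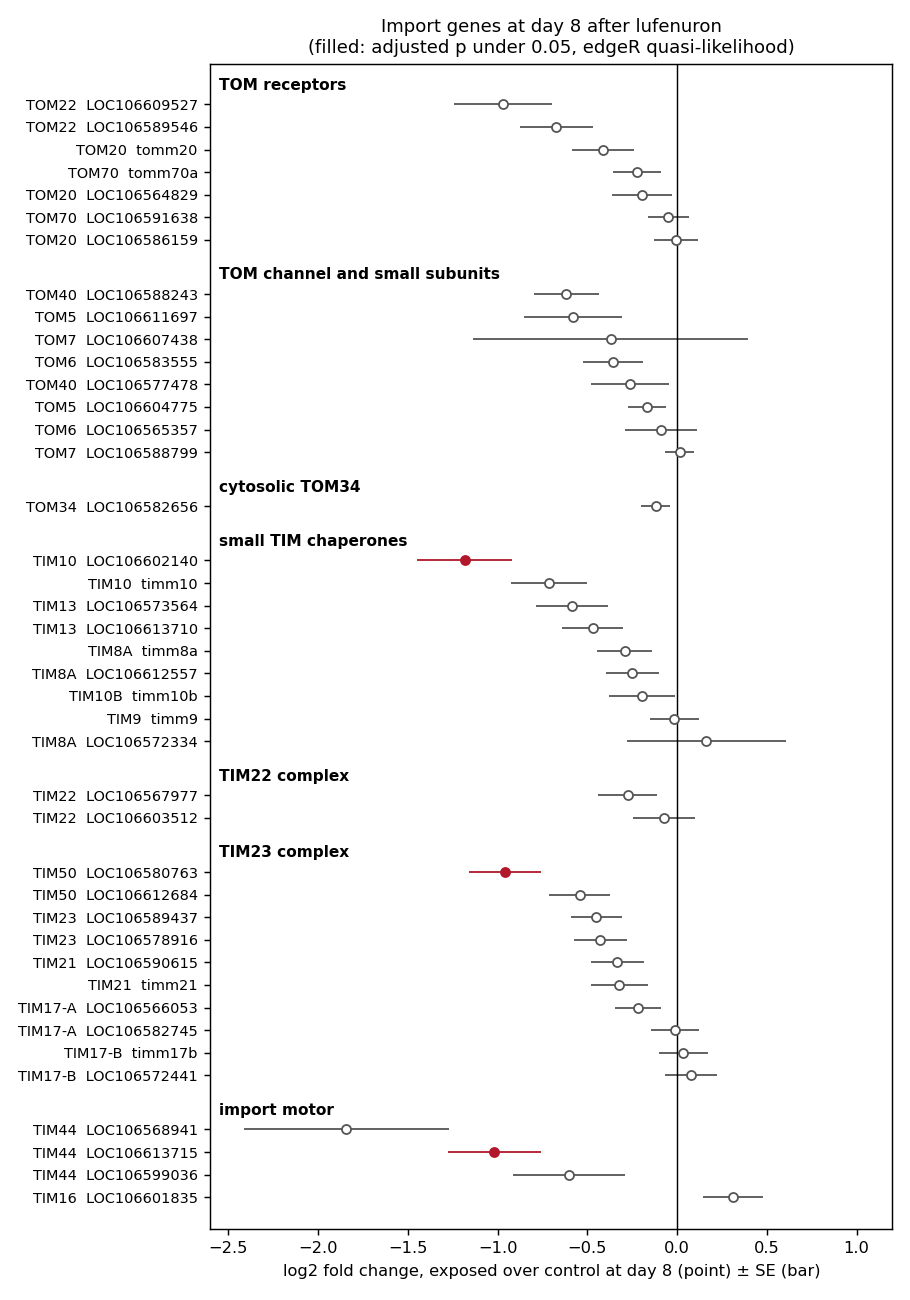
Log2 fold change of exposed over control livers at day 8 (points) with its standard error (bars) for the 41 import genes tested, grouped by their place in the import pathway; n = 10 fish per group, and filled red points passed an adjusted p of 0.05. Points lie left of zero for 36 genes, and the 3 filled points are a TIM10, a TIM50 and a TIM44 copy.

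Among the receptors of the outer membrane, all 7 members had a negative log2 fold change at day 8 and none passed the threshold, with a median of -0.22. TOM22 is the central receptor that hands precursors from TOM20 to the channel. Its copy LOC106609527 had a lowest, median and highest level of 1.46, 2.86 and 4.80 CPM in exposed livers, against 1.40, 5.82 and 9.89 CPM in control livers. Every exposed fish had less than the control median, the groups overlapped, and control fish 1 held the lowest value of the 20. The log2 fold change was -0.97 ± 0.27 (SE, n = 10 per group) with an adjusted p of 0.0539 in the edgeR test, just above the threshold. The other TOM22 copy, LOC106589546, had 4.01, 5.64 and 7.01 CPM in exposed livers against 3.50, 8.24 and 13.9 CPM in controls, with a log2 fold change of -0.67 ± 0.20 and an edgeR adjusted p of 0.0706. Again the exposed fish all stayed under the median of the controls, and control fish 1 was the lowest of its group.

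TOM20 is a receptor for presequences. Its entry tomm20 had a log2 fold change of -0.41 ± 0.17, LOC106564829 one of -0.19 ± 0.17 and LOC106586159 one of -0.00 ± 0.12 (adjusted p = 0.211, 0.615 and 0.992, edgeR). TOM70, the receptor that takes carrier precursors from cytosolic chaperones, is present in 2 entries. Its copy LOC106591638 had 44.4, 56.5 and 74.9 CPM in exposed livers against 43.3, 58.5 and 86.5 CPM in controls, a log2 fold change of -0.05 ± 0.11. Here the groups covered nearly the same range. The copy tomm70a had a log2 fold change of -0.22 ± 0.13.

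In the channel and its small subunits, 7 of 8 tested members had a negative log2 fold change at day 8 and none passed. TOM40 is the beta-barrel protein that forms the pore of the outer membrane. Copy LOC106588243 of TOM40 had 5.16, 8.36 and 12.4 CPM in exposed livers against 5.02, 13.5 and 18.0 CPM in controls. Its log2 fold change was -0.62 ± 0.18 with an edgeR adjusted p of 0.0629, and 10 of 10 exposed fish had less than the control median. For the second TOM40 copy, LOC106577478, the values were 10.2, 16.0 and 19.5 CPM in exposed livers against 8.62, 18.4 and 30.1 CPM in controls, and 6 of 10 exposed fish lay below the control median. TOM5, TOM6 and TOM7 are small membrane proteins that stabilise the complex. Their 6 tested entries had log2 fold changes from -0.58 (LOC106611697, TOM5) to 0.01 (LOC106588799, TOM7), and the entry LOC106607438, a TOM7 pseudogene, averaged under 0.3 CPM in every group. TOM34, a cytosolic partner of heat shock proteins that is named with the translocases, had a log2 fold change of -0.12 ± 0.08 (LOC106582656, edgeR adjusted p = 0.498).

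The small TIM chaperones of the intermembrane space escort hydrophobic precursors, with TIM9 and TIM10 forming one kind of ring and TIM8 and TIM13 another. Of 9 tested members, 8 had a negative log2 fold change at day 8 and 1 fell past the threshold. This was the TIM10-like copy LOC106602140, with 1.31, 2.35 and 3.21 CPM in exposed livers against 1.80, 4.95 and 9.84 CPM in control livers. Its log2 fold change was -1.18 ± 0.26, a level of 0.440 times that of controls, with an edgeR adjusted p of 0.0185. The exposed fish formed a narrow band at the bottom of the control range, and 10 of 10 had less than the control median. The other TIM10 entry, timm10, had 6.00, 9.52 and 13.7 CPM in exposed livers against 6.46, 16.0 and 21.4 CPM in controls, with a log2 fold change of -0.71 ± 0.21 and an adjusted p of 0.0694.

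The TIM13 copies had log2 fold changes of -0.59 ± 0.20 (LOC106573564) and -0.47 ± 0.17 (LOC106613710) at day 8, with edgeR adjusted p-values of 0.111 and 0.140. LOC106573564 had 4.73, 7.44 and 10.8 CPM in exposed livers against 4.91, 10.4 and 18.6 CPM in controls. By contrast timm9, whose protein pairs with TIM10, had 8.48, 9.61 and 11.8 CPM in exposed livers against 5.78, 9.44 and 14.8 CPM in controls. The timm9 medians nearly coincided, with a log2 fold change of -0.01 ± 0.13. The entry timm10b, a TIM10 relative that works with the TIM22 complex, had a log2 fold change of -0.19 ± 0.18. Among TIM8A entries, timm8a and LOC106612557 had log2 fold changes of -0.29 and -0.25. A further TIM8A entry, LOC106572334, averaged under 0.3 CPM in each group.

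For TIM22, which inserts carrier proteins into the inner membrane, both copies had negative log2 fold changes that did not pass, -0.28 ± 0.16 for LOC106567977 and -0.07 ± 0.17 for LOC106603512 (edgeR adjusted p = 0.421 and 0.887).

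In the TIM23 complex, 8 of 10 members had a negative log2 fold change at day 8 and 1 fell. TIM50 is the intermembrane space receptor that leads presequences to the TIM23 channel. Its copy LOC106580763 had 1.39, 2.35 and 3.92 CPM in exposed livers, against 1.91, 4.79 and 6.70 CPM in control livers. In 10 of 10 exposed fish the level was under the control median. The log2 fold change was -0.96 ± 0.20, or 0.515 times the control level, with an edgeR adjusted p of 0.0133, the smallest of any member at day 8. The second TIM50 copy, LOC106612684, had 1.94, 2.98 and 4.79 CPM in exposed livers against 2.37, 4.94 and 7.22 CPM in controls, with a log2 fold change of -0.54 ± 0.17 and an adjusted p of 0.0846.

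TIM23 itself forms the channel together with TIM17. Its copies had log2 fold changes of -0.45 ± 0.14 (LOC106589437) and -0.43 ± 0.15 (LOC106578916) at day 8, with edgeR adjusted p-values of 0.0891 and 0.118. LOC106589437 had 3.91, 4.81 and 7.20 CPM in exposed livers against 3.81, 7.07 and 9.36 CPM in controls. LOC106578916 had 12.0, 18.2 and 25.9 CPM in exposed livers against 13.8, 27.1 and 33.5 CPM in controls. In both copies most exposed fish lay in the lower part of the control range. The TIM21 copies, a link between TOM and TIM23, had -0.33 (LOC106590615) and -0.32 (timm21). For TIM17 the log2 fold changes were -0.22 and -0.01 for its TIM17-A copies, LOC106566053 and LOC106582745, and 0.08 and 0.03 for its TIM17-B copies, LOC106572441 and timm17b.

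In the import motor, TIM44 docks the mitochondrial HSP70 at the TIM23 channel. Its copy LOC106613715 had 0.736, 1.37 and 2.11 CPM in exposed livers, against 0.657, 3.04 and 4.62 CPM in control livers, and 10 of 10 exposed fish had less than the control median. It fell, with a log2 fold change of -1.02 ± 0.26 and an edgeR adjusted p of 0.0336. The copies LOC106568941 and LOC106599036 had larger errors, -1.84 ± 0.57 (adjusted p = 0.0804) and -0.60 ± 0.31 (adjusted p = 0.341). LOC106568941 averaged 6.8 reads per exposed fish at day 8 and 29.4 per control fish, so counting error weighs more there. TIM16, also called PAM16 or Magmas, holds the J-protein that stimulates the motor, and its tested copy LOC106601835 went the other way, with 1.19, 2.67 and 4.63 CPM in exposed livers against 1.39, 2.24 and 3.00 CPM in controls. Its log2 fold change of 0.31 ± 0.17 was the highest of all members and did not pass (edgeR adjusted p = 0.371), although 9 of 10 exposed fish were above the control median.

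**Figure D2:**
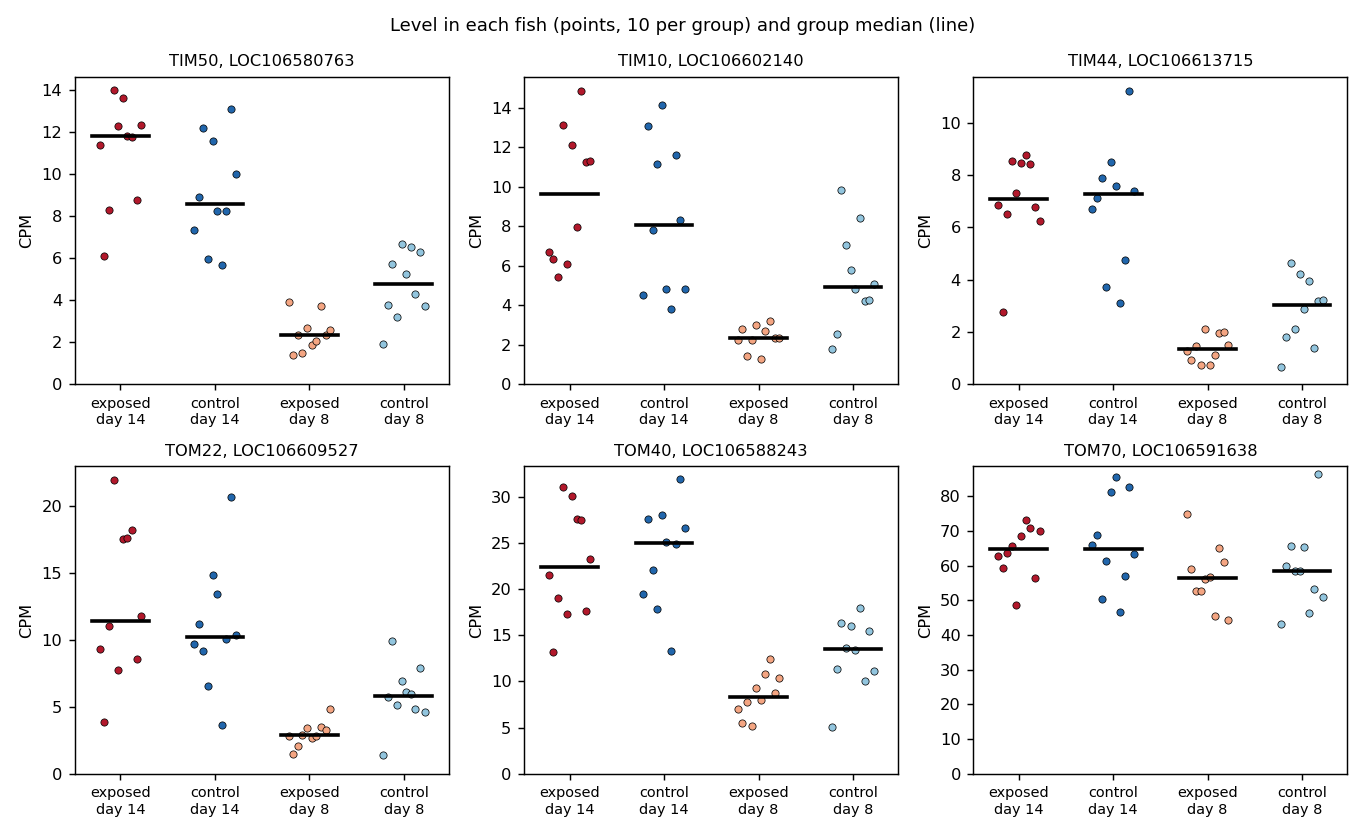
CPM in each fish (points, 10 per group) with the group median (line) for the TIM50, TIM10 and TIM44 copies that passed at day 8 and for copies of TOM22, TOM40 and TOM70; axes are linear and start at 0. The exposed day 8 fish have the lowest median in the first 5 panels, 1.37 to 8.36 CPM against 3.04 to 13.5 CPM in day 8 controls, and in TOM70 the groups cover nearly the same range.

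How reads shared by near-identical copies were counted is not known. In case they were split between copies, the copies of each subunit were also summed before the fit. Summing does not restore reads that were left out of the counts. TIM50 fell by 0.75 ± 0.18 on the log2 scale and TIM10 by 0.84 ± 0.20 at day 8, with edgeR adjusted p-values of 0.0251 and 0.0254. Summed TIM44 had a log2 fold change of -0.95 ± 0.27 and missed the threshold (adjusted p = 0.0525), and summed TOM22 had -0.80 ± 0.23 (adjusted p = 0.0539). The TIM44 copy LOC106613715, which fell, and the TIM13 copy LOC106613710, which did not pass, have only 4 annotated entries between them in the RefSeq table of assembly Ssal_v3.1. No coordinates are given because the build used for counting is not known.

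Exocrine pancreas markers were uneven between the groups at day 8. Of 53 marker entries, 8 had no count in any fish and 28 were tested, of which none passed at either day. Their summed level was 21.3 to 229 CPM in exposed livers (median 51.5), against 13.5 to 172 CPM in control livers (median 27.6). With this sum as a covariate TIM50 (LOC106580763), TIM10 (LOC106602140) and TIM44 (LOC106613715) still fell, by 0.98, 1.06 and 1.06 on the log2 scale (edgeR adjusted p = 0.0199, 0.038 and 0.0423). Without the 15 fish over 50 CPM of these markers, which left 5 exposed and 8 control fish at day 8, the log2 fold changes were -0.78, -1.22 and -1.04 (adjusted p = 0.285, 0.245 and 0.286). The TIM23 copies LOC106589437 and LOC106578916 and the TIM50 copy LOC106612684 shrank to -0.23, -0.26 and -0.35. The other members given with full values stayed closer to the reported fit, such as TOM40 (LOC106588243, -0.62), TIM13 (LOC106573564, -0.64) and timm10 (-0.59). The median of the members was -0.23. In that smaller fit edgeR called 0 members and 0 of all genes, with 11 of 42 members and 3403 genes at an unadjusted p under 0.05. Markers of gut and bile duct epithelium, of which 7 of 42 entries had no count, summed to 17.7 to 263 CPM in exposed livers (median 23.0) against 12.9 to 33.2 CPM in control livers (median 20.3). Of 11 tested markers of this kind all had a positive log2 fold change at day 8 and none passed, and their part in the result was not tested. Markers of stellate cells and endothelium summed to 597 to 1246 CPM in exposed livers (median 840.0) against 394.5 to 929.6 CPM in control livers (median 707.5). Of 21 tested, 17 had a positive log2 fold change, 4 had an unadjusted p under 0.05 and none passed, and their part was not tested either. Hepatocyte markers summed to 116400 to 188700 CPM in exposed livers (median 158500) against 124400 to 175000 CPM in control livers (median 151600). Of 20 tested hepatocyte markers, 15 had a positive and 5 a negative log2 fold change, none passed, and their part was not tested.

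A few fish weighed on the day 8 count. Without control fish 1 of day 8, the number of members that fell was 12 rather than 3, without exposed fish 8 of day 8 it was 6, without control fish 7 of day 14 it was 7, and without exposed fish 2 of day 14 it was 6. Without control fish 3 of day 8 only the TIM50 copy LOC106580763 remained. In the fits without one of these day 8 fish, the number of all genes that fell moved in the same way, from 352 in the reported fit. It was 867 without control fish 1, 478 without exposed fish 8 and 95 without control fish 3 of day 8. For the fits without a day 14 fish this number is not given, so the 7 and 6 are not shown to be particular to the import genes. TIM50 passed in all 40 fits that left out a single fish, the TIM10 copy LOC106602140 in 39 and the TIM44 copy LOC106613715 in 32. DESeq2 found 8 members lower in exposed livers at day 8, the same 3 among them. It also found more of all genes lower, 664 against 352 with edgeR.

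At day 14, 7 days after treatment had ended, no import gene differed between exposed and control livers past the threshold, and neither did any of the 30397 genes tested (0.0%) in the edgeR test. DESeq2 called none of the members and 20 genes in all. At an unadjusted p under 0.05 there were 2 members and 2438 genes. The 2 members were the TOM7 entry LOC106588799, with a log2 fold change of -0.17 ± 0.08, and the TIM16 copy LOC106601835, with 0.37 ± 0.17 (edgeR adjusted p = 0.592 for each). LOC106601835 had 1.60, 2.54 and 3.37 CPM in exposed livers against 1.34, 1.86 and 2.63 CPM in controls, so the exposed fish again reached higher. Exocrine pancreas markers summed to 14.0 to 367 CPM in exposed livers at day 14 (median 80.3) against 16.0 to 225 CPM in controls at day 14 (median 27.2), and 11 of 28 had an unadjusted p under 0.05. With this sum as a covariate, and without the fish rich in these markers, edgeR again called 0 members at day 14. Hepatocyte markers had a median sum of 130700 CPM in exposed livers against 153100 CPM in controls. Of 20 tested, 15 were negative and 5 positive, and 7, all lower in exposed livers, had an unadjusted p under 0.05. Of 21 tested markers of stellate cells and endothelium 17 were positive and 4 negative. None of either list passed, and their part was not tested.

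The genes that fell at day 8 did not pass at day 14. TIM50 (LOC106580763) had 6.13, 11.8 and 14.0 CPM in exposed livers, against 5.67, 8.60 and 13.1 CPM in control livers, a log2 fold change of 0.27 ± 0.19. TIM10 (LOC106602140) had 5.46, 9.63 and 14.9 CPM in exposed livers against 3.82, 8.08 and 14.2 CPM in controls. For TIM44 (LOC106613715) the values were 2.77, 7.09 and 8.77 CPM in exposed livers against 3.09, 7.26 and 11.2 CPM in controls. In all 3 genes the groups shared nearly their whole range. The median log2 fold change of the members at day 14 was 0.06, with 15 of 41 negative.

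The lufenuron effect at day 14 minus that at day 8 was tested directly, and no member passed, against 15 genes or 0.0493% of all genes tested. Point estimates were positive for 34 of 41 members, with a median of 0.38, and 12 of 41 members had an unadjusted p under 0.05, all positive, against 3277 of 30397 genes. The smallest p belonged to TIM50 (LOC106580763), where the difference of log2 fold changes was 1.23 ± 0.28 with an edgeR adjusted p of 0.0768. For TIM10 (LOC106602140) it was 1.36 ± 0.37 (adjusted p = 0.148), for TOM22 (LOC106609527) 1.19 ± 0.38 (0.228), and for TIM44 (LOC106613715) 1.08 ± 0.36 (0.249). DESeq2 and scaling by total counts each called 2 members, TIM50 and TIM10. They called 133 and 424 of all genes, and scaling by total counts moved the median of all genes to 0.25. A lower level in exposed livers that passed at day 8 and not at day 14 is therefore not shown by the edgeR test to differ between the days for any single member. Without control fish 1 of day 8 the test called 2 members, and without control fish 9 or exposed fish 2 of day 14 it called 1. Over all genes the fit without control fish 1 of day 8 called 104. For the fits without a day 14 fish this number is not given. Their call of 1 member is therefore not shown to be particular to the import genes.

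More import genes passed between the days than between treatments. In exposed fish 29 of 41 members rose at day 14 relative to day 8 and 2 fell (70.7% and 4.88%), against 17.7% of all genes that rose and 17.2% that fell. In control fish 14 rose and 2 fell (34.1% and 4.88%), against 10.4% and 8.97% of all genes. In either direction 75.6% of members passed in exposed fish and 39.0% in controls, against 34.9% and 19.3% of all genes. The median log2 fold change of the members was 0.73 in exposed fish and 0.34 in controls, and that of all genes was -0.03 and -0.00. All 16 members that passed in controls also passed in exposed fish in the same direction, which is every control call and 51.6% of the exposed calls. The same overlap was not counted over all genes, so it is not shown to be particular to the import genes. These comparisons share no fish, but exposed fish of day 8 enter both the day 8 result and the change over time in exposed fish. The change was more positive in exposed fish for 34 of 41 members, which is the same quantity as the difference of effects above, where none passed.

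**Figure D3:**
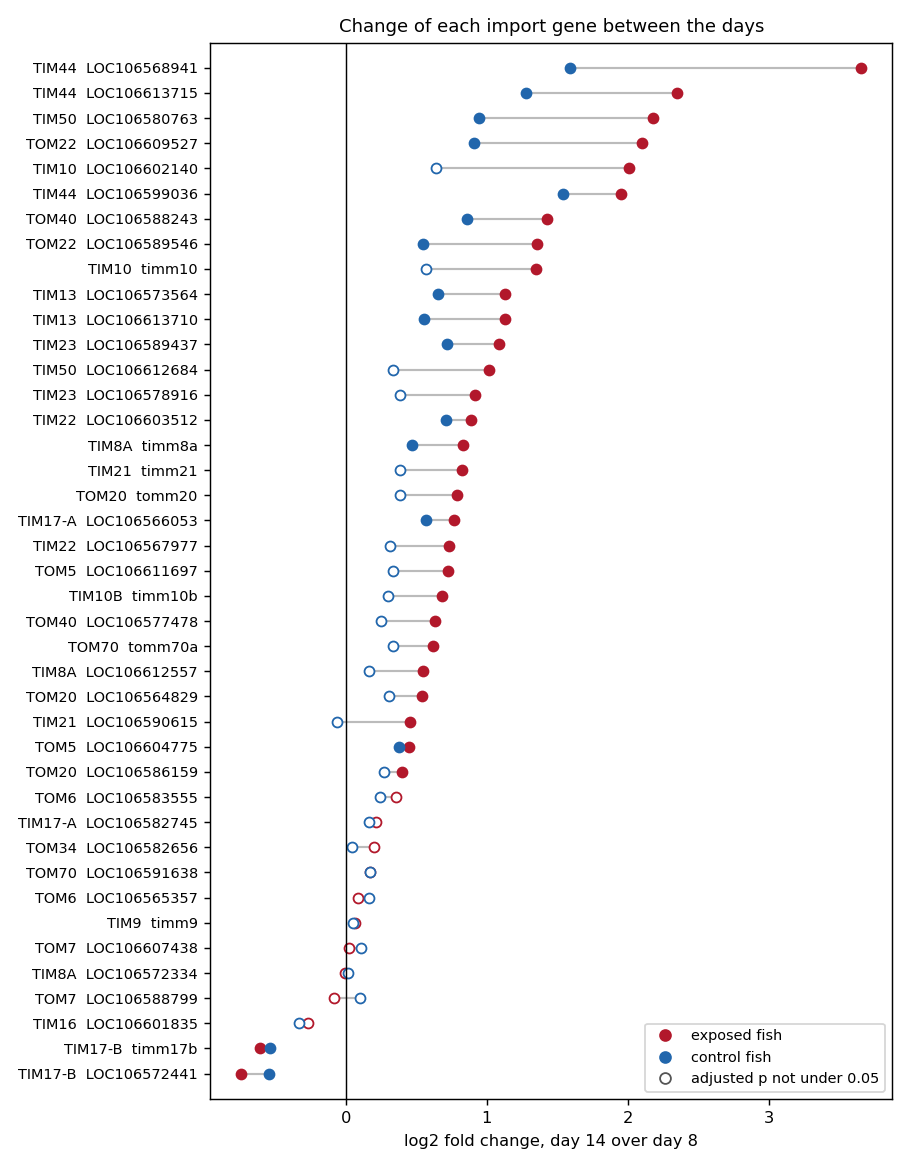
Log2 fold change of day 14 over day 8 for each of the 41 tested import genes, in exposed fish (red) and in control fish (blue), joined by a line and sorted by the value in exposed fish; n = 10 fish per group, and open points did not pass an adjusted p of 0.05. Most points lie right of zero, up to 3.65 for a TIM44 copy in exposed fish, and the lowest pair of rows are the TIM17-B copies, which lie left of zero with filled points in both kinds of fish.

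In the import motor 3 of 4 tested members rose in exposed fish and 3 in controls (75.0% each, against 17.7% and 10.4% of all genes). TIM44 copy LOC106613715 had 2.77, 7.09 and 8.77 CPM in exposed livers at day 14, against 0.736, 1.37 and 2.11 CPM in exposed livers at day 8, with no overlap. It rose by 2.35 ± 0.27 on the log2 scale in exposed fish (edgeR adjusted p = 1.39e-08) and by 1.27 ± 0.25 in control fish (adjusted p = 0.000483). Copy LOC106599036 rose by 1.95 and 1.54 in exposed and control fish, and copy LOC106568941, which is read thinly at day 8, by 3.65 and 1.59. The TIM16 copy LOC106601835 did not follow, with log2 fold changes of -0.27 in exposed and -0.33 in control fish that did not pass.

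In the TIM23 complex TIM50 copy LOC106580763 rose by 2.18 ± 0.20 in exposed fish (4.52 times, adjusted p = 5.55e-10, edgeR) and by 0.94 ± 0.20 in control fish (1.92 times, adjusted p = 0.000731). Its exposed livers at day 14 all lay above those at day 8. TIM23 copy LOC106589437 rose by 1.09 and 0.72, and LOC106578916 rose by 0.92 in exposed fish and had a log2 fold change of 0.39 in controls that did not pass (adjusted p = 0.0609). Copies of TIM50 (LOC106612684) and of TIM21 (timm21 and LOC106590615) passed in exposed fish only, with rises of 1.01, 0.83 and 0.46, and the difference from controls did not pass for any of them.

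Receptors and channel subunits of the outer membrane were also among those that rose. TOM22 copy LOC106609527 had 3.85, 11.4 and 21.9 CPM in exposed livers at day 14 against 1.46, 2.86 and 4.80 CPM at day 8, a rise of 2.10 ± 0.28 (edgeR adjusted p = 2.86e-07), and it rose by 0.91 ± 0.27 in controls (adjusted p = 0.0148). Of the 7 receptors 6 rose in exposed fish and 2, both TOM22 copies, in controls. These are 85.7% and 28.6%, against 17.7% and 10.4% of all genes. The control call of LOC106589546 (0.55 ± 0.20, edgeR adjusted p = 0.0464) held in 19 of 40 fits that left out a fish and in 4 of 10 other settings. The TOM70 copy LOC106591638 passed in neither, at 0.17 in each. TOM40 copy LOC106588243 rose by 1.42 and 0.86, and the TOM5 copy LOC106604775 by 0.45 and 0.37. The entries of TOM6 and TOM7 did not pass in either kind of fish, and their log2 fold changes lay between -0.08 and 0.35. TOM34 (LOC106582656) did not pass in exposed fish, at 0.20 ± 0.08 (adjusted p = 0.0517).

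Of the small TIM chaperones 7 of 9 rose in exposed fish and 3 in control fish. These are 77.8% and 33.3%, against 17.7% and 10.4% of all genes. LOC106602140, the TIM10 copy, had 5.46, 9.63 and 14.9 CPM in exposed livers at day 14 against 1.31, 2.35 and 3.21 CPM at day 8, with no overlap and a rise of 2.00 ± 0.27 (edgeR adjusted p = 3.04e-07). In controls its log2 fold change was 0.64 ± 0.26 (adjusted p = 0.0731). The TIM13 copies rose by 1.13 each in exposed fish and by 0.65 (LOC106573564) and 0.55 (LOC106613710) in controls. The entry timm9 was again the level member, at 0.07 and 0.05. Both TIM22 copies rose in exposed fish, by 0.73 (LOC106567977) and 0.88 (LOC106603512), and LOC106603512 also rose in controls, by 0.71.

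In 8 of the 41 members the exposed fish of day 14 all lay above those of day 8. They were copies of TIM50, TIM10, TIM13, TIM23, TIM22 and TOM40 and 2 copies of TIM44. In the other comparisons no member had groups without overlap. The share of all genes without overlap was not counted, so 8 of 41 is not shown to be particular to the import genes.

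TIM17 is a channel subunit with an A and a B form. In human cells TIM17A and TIM17B build separate forms of the TIM23 complex, and TIM17A is the short-lived form. The TIM17-B copies were the only members that passed with a fall between the days. LOC106572441 had 1.48, 2.04 and 2.84 CPM in exposed livers at day 14 against 2.32, 3.44 and 4.42 CPM at day 8, and fell by 0.74 ± 0.15 on the log2 scale (edgeR adjusted p = 0.000135). In control livers it had 1.58, 2.03 and 3.98 CPM at day 14 against 2.28, 3.28 and 4.03 CPM at day 8, and fell by 0.54 ± 0.15 (adjusted p = 0.00793). For timm17b the falls were 0.61 ± 0.14 in exposed fish (adjusted p = 0.000567) and 0.54 ± 0.14 in controls (adjusted p = 0.00478).

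The TIM17-A copy LOC106566053 rose by 0.77 ± 0.13 in exposed fish (edgeR adjusted p = 1.04e-05) and by 0.57 ± 0.13 in controls (adjusted p = 0.00151). It had 9.41, 14.4 and 19.7 CPM in exposed livers at day 14, 9.88, 15.2 and 18.8 CPM in control livers at day 14, 6.21, 8.46 and 11.4 CPM in exposed livers at day 8 and 5.70, 10.4 and 14.1 CPM in control livers at day 8. The second TIM17-A copy, LOC106582745, had log2 fold changes of 0.22 and 0.17 that did not pass. The counts of the TIM17-A copies were divided by those of the TIM17-B copies within each fish, a ratio that gene length affects equally in all fish. Its lowest, median and highest values were 4.20, 7.70 and 9.71 in exposed livers at day 14, 2.56, 7.86 and 9.56 in controls at day 14, 2.49, 3.45 and 4.04 in exposed livers at day 8, and 2.08, 3.50 and 5.68 in controls at day 8. All exposed fish of day 14 were above all exposed fish of day 8, while the control groups overlapped. The ratio restates the changes of these copies given above and is not a separate result.

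**Figure D4:**
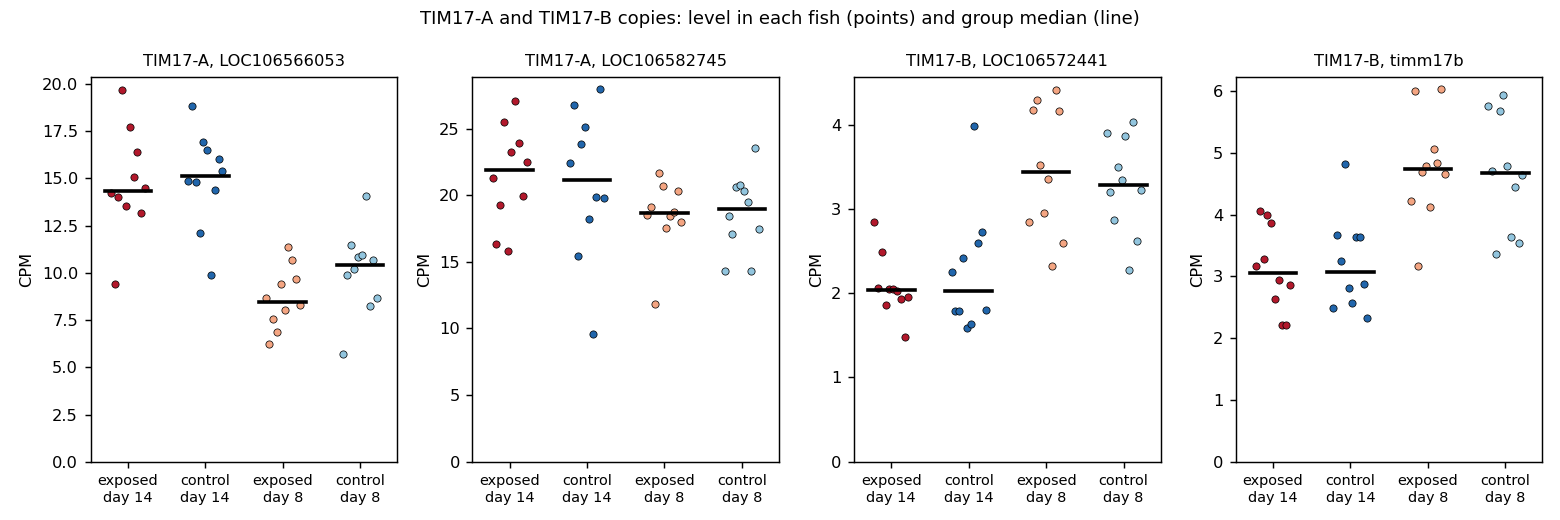
CPM of the TIM17-A copies (LOC106566053, LOC106582745) and TIM17-B copies (LOC106572441, timm17b) in each fish (points, 10 per group) with the group median (line); axes are linear and start at 0. Day 14 medians are above day 8 medians for TIM17-A and below them for TIM17-B, in exposed and in control fish.

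Levels of the import genes also varied from fish to fish within a group. Summed over the 46 members, the level was 374 to 660 CPM in exposed livers at day 14 (median 541), 337 to 687 CPM in controls at day 14 (median 527), 309.5 to 429 CPM in exposed livers at day 8 (median 331) and 260.5 to 534 CPM in controls at day 8 (median 415). Control fish 1 of day 8 held the lowest level of its group in 30 of the 41 tested members. Control fish 7 of day 14 was lowest in 29 and exposed fish 2 of day 14 in 22, while control fish 9 of day 14 was highest in 20. Control fish 7 weighed 18 g, and the other light controls of day 14, fish 6 (18 g) and fish 10 (17 g), were lowest in 0 and 2. Of these light controls only fish 6 was also short. The recorded lengths of fish 7 and fish 10 lay within the range of the heavier fish, and whether their weights were recorded correctly is not known. All these fish were singled out after their values were seen, and the genes share a library and its scaling.

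In the same 3 low fish the TIM17-B copies were not low. Control fish 1 of day 8 ranked 2nd from the top of its group of 10 for LOC106572441 (3.90 CPM) and for timm17b (5.76 CPM), and last for TIM50 (LOC106580763). Control fish 7 of day 14 ranked 1st for LOC106572441 and 4th for timm17b, and exposed fish 2 of day 14 ranked 3rd for LOC106572441 and 1st for timm17b. This was not particular to TIM17-B. The TIM22 copy LOC106603512 had its group's highest level in control fish 7 (12.01 CPM), and 8.97 CPM in exposed fish 2 (group median 6.28). The TIM16 copy LOC106601835 had 2.775 CPM in control fish 1 of day 8 (group median 2.235).

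**Figure D5:**
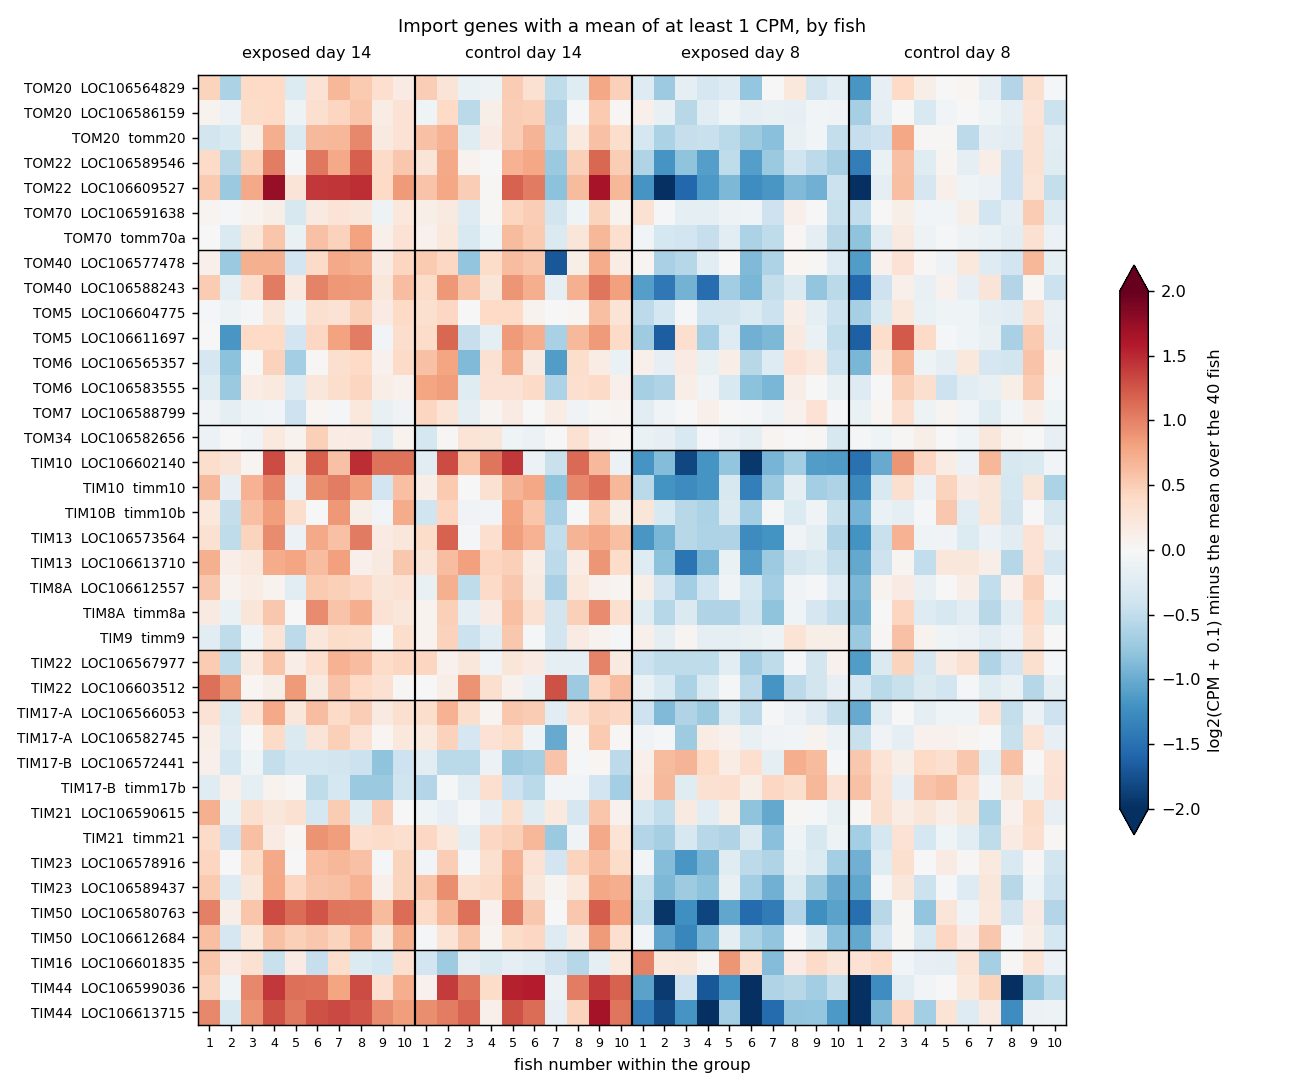
Log2(CPM + 0.1) of the 38 tested import genes with a mean of at least 1 CPM (rows, by place in the pathway), minus each gene's mean over the 40 fish, for every fish (columns, by group); red is above and blue below the mean, and the scale ends at 2 in either direction. Each exposed fish of day 8 was below the mean in 24 to 35 of the 38 genes, against 8 to 34 in control fish of day 8, with fish 1 and 10 at 34, and the TIM17-B rows are mostly red at day 8 and blue at day 14.

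Genes that work beside the translocases were counted too. The list of these, which was drawn up with earlier results of these data known, covered outer membrane sorting, presequence cleavage, matrix folding, the intermembrane space relay, inner membrane insertion and proteases. Of 55 entries 48 were tested, and none passed at day 8 or at day 14 in the edgeR test, with 5 and 1 at an unadjusted p under 0.05 and median log2 fold changes of -0.06 and 0.02. The smallest p at day 8 belonged to LOC106604950, the mitochondrial HSP70 (stress-70 protein) that TIM44 holds at the channel, with a log2 fold change of -0.69 ± 0.23 (adjusted p = 0.101). Over time 17 rose and 5 fell in exposed fish (35.4% and 10.4%, against 17.7% and 17.2% of all genes). In controls 8 rose and 2 fell (16.7% and 4.17%, against 10.4% and 8.97% of all genes). LOC106604950 averaged 208 CPM in exposed livers at day 14 against 65.4 CPM at day 8, and 194 CPM in control livers at day 14 against 106 CPM at day 8. It rose by 1.67 ± 0.23 and 0.87 ± 0.23 on the log2 scale (adjusted p = 5.82e-07 and 0.00609).

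The matrix chaperonin HSP60, which folds imported proteins, rose by 1.80 and 1.00 in exposed and control fish for LOC100136430 and by 1.13 and 0.83 for LOC106586369. Of 8 tested protease entries 3 rose and 2 fell in exposed fish (37.5% and 25.0%, against 17.7% and 17.2% of all genes). In controls 1 rose and 1 fell (12.5% each, near the 10.4% and 8.97% of all genes). Those that rose in exposed fish were lonp1, a protease of the matrix, by 0.75, and the proteolytic Clp subunits LOC106601715 and LOC106606781, by 0.37 and 0.35. The gene oma1, whose product acts when the inner membrane loses its potential, fell by 0.43 in exposed and 0.46 in control fish. Of 4 entries of YME1L1, an inner membrane protease, LOC106568699 fell by 0.31 in exposed fish (edgeR adjusted p = 0.0104), and LOC106579701, LOC106590300 and LOC106598156 did not pass, at 0.18, -0.01 and -0.10.

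Other mitochondrial genes were counted in the same fit. Of 107 tested mitochondrial ribosomal proteins, which are themselves imported, 3 fell at day 8 (2.8%, against 1.16% of all genes), with a median log2 fold change of -0.16. As with the import genes, most (88 of 107) had a negative log2 fold change at day 8. Of the 28 at an unadjusted p under 0.05, 27 were lower in exposed livers. The difference of effects between the days was positive for 84 of 107, and none passed. Over time 57 of them rose in exposed fish (53.3%, against 17.7% of all genes) and 17 in controls (15.9%, against 10.4%), and 1 fell in exposed fish. Of 131 tested subunits of the respiratory chain and ATP synthase none passed at day 8, with a median of -0.01, and over time 11 rose and 10 fell in exposed fish (8.4% and 7.63%) and 4 rose and 3 fell in controls (3.05% and 2.29%). These shares of the respiratory chain are below those of all genes in each direction.

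Markers of other cells were set beside the changes over time. Of 29 tested erythrocyte markers 18 rose in exposed fish (62.1%, against 17.7% of all genes) and 14 in controls (48.3%, against 10.4%). Their sums were 1413 to 4342 CPM in exposed livers at day 14, 1590 to 3713 CPM in controls at day 14, 1257 to 2217 CPM in exposed livers at day 8 and 1299 to 2537 CPM in controls at day 8. Of 21 tested markers of stellate cells and endothelium 7 fell in exposed fish (33.3%, against 17.2% of all genes) and 6 in controls (28.6%, against 8.97%). Of 11 gut and bile duct markers 8 fell in exposed fish (72.7%) and 1 in controls (9.09%, near the share of all genes). Of 20 hepatocyte markers 6 fell in exposed fish (30.0%) and 1 in controls (5.0%, below the share of all genes). The part of these cells in the changes of the import genes was not tested. Without the 15 fish rich in pancreas markers 23 members passed over time in exposed fish and 12 in controls, against 31 and 16 with them. In that smaller fit fewer of all genes passed too, 5021 and 4077 against 10608 and 5878.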

How the data were processed

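Poly-A RNA libraries of 40 livers were measured, 1 per fish. The authors deposited whole-number read counts per gene entry, not normalized. HISAT2, Cufflinks, HTSeq and DESeq2 were used upstream, per the submitters' processing notes. Their versions, the genome build, the annotation and strand use were not given in the labels, so single copies of duplicated, overlapping or antisense genes are uncertain. Of 79140 entries, 29369 had no counts. Counts were analysed with edgeR 4.0.16 in R 4.3.3: filterByExpr (minimum count 10, total 15) left 30397 genes with 99.9% of counts, TMM scaling, a robust quasi-likelihood fit of 4 group means over 40 fish, 5 contrasts, Benjamini-Hochberg adjustment over all genes and a threshold of 0.05. SE is the log2 fold change divided by the root of F. CPM uses TMM-scaled library sizes. The script was tested on simulated data. None of 780 library pairs agreed within sampling noise. DESeq2 1.42.0 and the settings of the closing section were alternatives. Members, lists, alternatives and naming rules were chosen with earlier results of these data known. Named were members past the threshold in any comparison, the 12 with the smallest p at day 8 with full values, the leading and deviating members of each role group and the 5 with the smallest p elsewhere; any other gene or fish was picked with its values in view. Sequence features were not analysed here. The RefSeq table of assembly Ssal_v3.1, in which 29 members matched, was used for gene neighbours alone.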

Additional observations from a re-analysis of the deposited data

Results flagged for a closer look

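Within the groups of 10 fish, 9 of 164 combinations of member and group had an extreme fish whose gap to the next one was above Dixon's critical value for 10 samples; chance alone flags about 1 in 20 groups. Above the others lay control fish 9 of day 14 for TIM22 (LOC106567977, 8.82 CPM, group median 4.93), control fish 7 of day 14 for TIM17-B (LOC106572441, 3.98 CPM, median 2.03), exposed fish 6 of day 14 for TOM34 (LOC106582656, 17.9 CPM, median 13.5), control fish 10 of day 14 for TIM16 (LOC106601835, 2.63 CPM, median 1.86), control fish 9 of day 8 for TOM70 (LOC106591638, 86.5 CPM, median 58.5) and control fish 3 of day 8 for tomm20 (14.7 CPM, median 7.42). Below the others lay exposed fish 2 of day 14 for TIM44 (LOC106613715, 2.77 CPM, median 7.09) and exposed fish 3 of day 8 for TIM17-A (LOC106582745, 11.8 CPM, median 18.6) and TOM20 (LOC106586159, 9.74 CPM, median 13.0). Exposed fish 3 of day 8 also held the highest sum of gut and bile duct epithelium markers, 263 CPM.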

How the results depend on the processing

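At day 8 the count of import genes past the threshold was 3 in the reported fit and 8 with DESeq2. It was 0 without the pancreas-rich fish, a setting that leaves fewer samples. Over all genes these counts were 494, 1048 and 0. Leaving out a fish gave 1 to 12 members. The difference between days gave 0 members, but 2 with total counts as the only scaling and 2 with DESeq2. Over all genes it gave 15, 424 and 133. Leaving out a fish gave 0 to 2 members. With duplicates summed, 10 of 21 subunits passed over time in controls and 17 of 21 in exposed fish. In the reported fit 16 and 31 of 41 members passed, against 19.3% and 34.9% of all genes. The share of all genes in the fit with summed duplicates is not given here. Leaving out a fish gave 13 to 23 and 30 to 33 members. The counts of all genes moved as well. In controls they were 4738 without control fish 1 of day 8 and 6661 without control fish 3. In exposed fish the count was 9817 without exposed fish 2 of day 8. Without the pancreas-rich fish 12 members passed in controls and 23 in exposed fish, with 4077 and 5021 of all genes against 5878 and 10608. The TIM22 copy LOC106603512 was among the exposed calls lost (log2 fold change 0.49, edgeR adjusted p = 0.19). Of 40 fits without a fish, the call over time held in 32 for TOM5 (LOC106611697, exposed), 19 for TOM22 (LOC106589546, controls), 38 for timm8a (controls) and 39 for TIM44 (LOC106568941, controls). Day 14 gave 0 under every setting run. The 3 fish under 20 g were controls of day 14, and by recorded length only fish 6 of them was short. Whether the weights of fish 7 and fish 10 were recorded correctly is not known. The settings that use weight are therefore an uncertain check on body size. Without the 3 fish under 20 g, 19 members and 5277 of all genes passed over time in controls, and the day 14 median of the members was -0.01. With body weight as a covariate 15 members passed over time in controls and 30 in exposed fish, with 5717 and 9575 of all genes. The day 14 median was then 0.03. Medians without a fish were -0.36 to -0.24 at day 8, 0.01 to 0.11 at day 14, 0.29 to 0.44 for the difference, 0.25 to 0.39 in controls and 0.66 to 0.82 in exposed fish. Scaling by total counts moved the median of all genes to -0.06 at day 8, 0.18 at day 14, 0.25 for the difference and 0.16 over time in exposed fish. No value of a named gene changed sign among called results; 3337 kept their side of the threshold, 66 lost it and 42 gained it. The TIM44 copy LOC106613715 also missed the threshold at day 8 when only the 2 groups of the day were fitted; the cause was not tested.

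Replicate numbers are shared between groups, but nothing says they pair fish, and deviations of same-numbered fish correlated at -0.07 to 0.30 at day 8 and -0.19 to 0.12 at day 14. With a replicate block 2 members passed at day 8 (LOC106613715 at an edgeR adjusted p of 0.052) and 0 at day 14. For the difference 0 passed, and over time 14 in controls and 31 in exposed fish. Over all genes 231, 0, 8, 5423 and 9919 passed, in the same order.

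The 5 members not tested and the tested entries LOC106572334 and LOC106607438 had few reads, so for them a moderate change was not detectable at this depth. The TIM44 copy LOC106568941, also under 1 CPM, averaged 6.8 reads in exposed and 29.4 in control fish at day 8. At day 14 it averaged 110.4 and 83.6 reads, and it passed over time in both kinds of fish.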
